A study of Mus musculus with 3 samples.

Results

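The regions described here were ATF4 peaks, called in 1 library, at which the CEBPG antiserum gave no peak. They came from chromatin immunoprecipitation followed by sequencing (ChIP-seq), which recovers the DNA bound by a protein with an antibody against it. The cells were mouse embryonic fibroblasts, which are primary wild-type cells of the C57BL/6 strain isolated at E13.5 and passaged before use. All of them had been plated for 24 hours and then held in amino acid deprived medium for 3 hours, so the study's peaks are those of starved cells alone. There was 1 library for an ATF4 antibody (Santa Cruz, C-20), 1 for an antiserum against the C-terminus of CEBPG and 1 for a GFP antibody, which was not analysed here. With 1 library per antibody there is no replicate error, and each p-value describes the peak lists, not separate cultures. The regions were chosen by their ATF4 score and by their distance from CEBPG peaks. Members were ATF4 peaks with a deposited score of 50 or more that shared no base with a CEBPG peak and had no CEBPG peak centre within 250 bp. Of 2642 ATF4 peaks, 847 scored 50 or more and 544 of these were members. Another 298 lay on a CEBPG peak, and 5 were next to one with centres within 250 bp.

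ATF4 is a basic leucine zipper (bZIP) transcription factor whose translation rises when amino acids run short. It binds DNA as a dimer, often with a member of the C/EBP family such as CEBPG, at composite C/EBP-ATF elements upstream of genes for amino acid synthesis and transport. ATF4 can also dimerise with bZIP proteins of other families. Neither direct binding of ATF4 nor its dimer partner was measured at the regions described here. The 544 members were split into 467 that were narrow and single, and 77 that were wider than 1 kb or lay within 20 kb of another member. The 77 fell into 34 places in the genome.

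Sequence was at hand for the members that touched a promoter window, defined as 250 bases before to 50 bases after a RefSeq transcription start (build GRCm38.p6, the sequence of mm10). Of the members, 4 touched such a window, and all 4 were wider than 1 kb. The windows are printed because they show the DNA at the starts that these 4 peaks touched. Most of each peak lay outside the windows and was not read, and neither were the other wide members. For comparison, the last is the window of Iars, isoleucyl-tRNA synthetase, at which an ATF4 peak (score 122.81) did lie on a CEBPG peak. It was picked as the window with a composite element under the highest-scoring ATF4 peak of that kind. Each is written 5′ to 3′ on the strand of its gene, and capitals mark any match to the 9 motifs searched. A530032D15Rik is at chr1:85109804-85110103 on the minus strand, C130026I21Rik at chr1:85270517-85270816 on the minus strand, Gm40237 at chr4:118547156-118547455 on the plus strand, Gm21083 at chr5:15577043-15577342 on the plus strand, and Iars at chr13:49681880-49682179 on the plus strand.
A530032D15Rik: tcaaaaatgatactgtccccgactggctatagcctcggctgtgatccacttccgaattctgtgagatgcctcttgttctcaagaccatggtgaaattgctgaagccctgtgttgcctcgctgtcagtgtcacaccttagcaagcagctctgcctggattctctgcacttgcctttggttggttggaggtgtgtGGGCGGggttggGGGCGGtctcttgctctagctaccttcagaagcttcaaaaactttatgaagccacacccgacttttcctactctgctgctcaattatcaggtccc
C130026I21Rik: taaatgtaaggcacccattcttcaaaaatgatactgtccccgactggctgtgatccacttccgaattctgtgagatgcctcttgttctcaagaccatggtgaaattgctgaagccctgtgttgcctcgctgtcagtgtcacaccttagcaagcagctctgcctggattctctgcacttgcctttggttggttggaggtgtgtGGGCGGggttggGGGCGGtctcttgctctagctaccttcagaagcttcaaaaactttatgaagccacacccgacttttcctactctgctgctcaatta
Gm40237: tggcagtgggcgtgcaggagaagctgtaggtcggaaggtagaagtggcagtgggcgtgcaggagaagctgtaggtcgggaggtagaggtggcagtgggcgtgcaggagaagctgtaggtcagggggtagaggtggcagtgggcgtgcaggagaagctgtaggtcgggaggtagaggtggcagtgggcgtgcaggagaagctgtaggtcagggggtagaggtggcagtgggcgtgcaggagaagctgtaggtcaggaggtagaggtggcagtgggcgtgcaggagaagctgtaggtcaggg
Gm21083: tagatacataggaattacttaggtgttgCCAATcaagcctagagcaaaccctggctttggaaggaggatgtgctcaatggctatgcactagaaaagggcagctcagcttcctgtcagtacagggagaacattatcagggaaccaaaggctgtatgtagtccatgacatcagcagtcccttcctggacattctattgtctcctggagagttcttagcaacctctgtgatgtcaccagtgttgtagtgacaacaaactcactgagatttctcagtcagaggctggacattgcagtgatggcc
Iars: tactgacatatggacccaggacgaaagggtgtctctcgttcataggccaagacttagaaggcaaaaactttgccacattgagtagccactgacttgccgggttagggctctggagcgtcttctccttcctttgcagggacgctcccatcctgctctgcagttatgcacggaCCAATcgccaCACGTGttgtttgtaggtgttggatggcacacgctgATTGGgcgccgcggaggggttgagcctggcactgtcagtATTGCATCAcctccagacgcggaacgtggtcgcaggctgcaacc

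The windows of A530032D15Rik and C130026I21Rik, both listed as protein-coding, contained an identical run of 255 bases. The ATF4 peak over the first was 1134 bp wide with a score of 59, and the peak over the second was 1768 bp wide with a score of 58.11. The printed window of Gm40237, a long noncoding RNA gene, was a tandem repeat. Shifted against itself by 88 bases, it matched at 97.6% of positions. Of all 32851 promoter windows in the table, 18 (0.0548%) matched themselves at 80% or more at a shift of 10 to 100 bases. The peak over this gene scored 251.59, was 1739 bp wide and also touched a further start window of Gm40237. That further window matched itself at 42.7% at most, at a shift of 87 bases, below the limit of 80%. The window of Gm21083 shared a run of 40 bases with windows of 23 other genes elsewhere, and its peak was 1442 bp wide with a score of 75.1. A shared run of this length was present in 8.77% of all windows and in 0 of the 30 windows touched by ATF4 peaks on CEBPG peaks. These measures of repetition were chosen after the sequences had been seen.

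The composite element TGATGCAAT was in 0 of the 5 windows touched by members. It was in 63 of all 32851 windows (0.192%) and in 6 of the 30 windows under ATF4 peaks on CEBPG peaks. The full cAMP response element TGACGTCA, its core TGACG (which lies within it), the AP-1 element TGANTCA, the C/EBP palindrome TTGCGCAA, the E-box CACGTG and the ETS element CCGGAAG were also in 0 of the 5, searched on both strands. Among all windows they were present in 1.79%, 20.8%, 7.81%, 0.183%, 7.15% and 8.86%. The GC box GGGCGG occurred in the A530032D15Rik and C130026I21Rik windows (35.7% of all windows), and CCAAT in that of Gm21083 (37.4% of all windows). With 5 windows, no rate can be read from these counts, and the rest of each peak was not searched.

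Most members scored near the limit of 50. The median over all 2642 ATF4 peaks, 544 of them members, was lower, at 45.88. Of the 544, 382 scored from 50 to 60, 121 from 60 to 80, 16 from 80 to 100 and 25 reached 100, with a median of 55.39. Among the ATF4 peaks on CEBPG peaks, 110 of 298 reached 100 and the median was 78.11. Scores helped to choose the members, so these values are descriptive. The strongest members were mostly wide or clustered. Of the 10 highest ATF4 scores in the whole list, 2 were members, both wide, and of the 100 highest, 17 were members, 14 of them wide or clustered. Just inside the limit lay peaks inside Zdhhc6 and 396 kb from 2610001J05Rik (50.01 each) and inside Mlip (50.07). Just outside it lay peaks inside Diaph3 (49.99), 106 kb from Snrpn (49.94) and 567 kb from Ccdc85a (49.93).

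**Figure D1:**
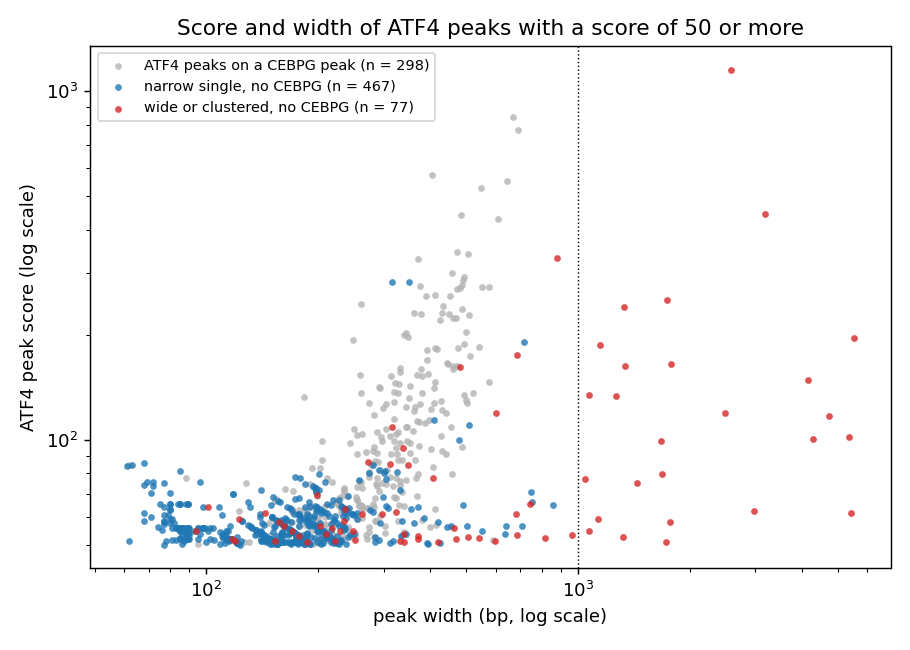
Score against width for ATF4 peaks with a score of 50 or more, both on log axes, with 1 point per peak and a dotted line at 1 kb. The 298 peaks on CEBPG peaks widen with score, while the 467 narrow single members stay mostly under 100 and all 26 peaks beyond 1 kb are wide members.

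Width and score went together in ATF4 peaks on CEBPG peaks and hardly at all in narrow single members. Across peaks of the same library, which are not independent replicates, Spearman's rho was 0.74 for the 296 narrow single peaks on CEBPG peaks and 0.08 for the 467 members. Restricted to scores from 50 to 80, it was 0.35 (n = 151) and 0.04 (n = 451). In the 77 wide or clustered members it was 0.51, and in all 544 members 0.19. Across all ATF4 peaks it was 0.32, and in those under a score of 50 without a CEBPG overlap 0.01. The low value was thus not particular to the narrow single members. Limits of score and width helped to define these groups, so the values are descriptive. The median width was 169 bp in narrow single members and 289 bp in ATF4 peaks on CEBPG peaks.

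The narrow single member with a known place in this pathway lay in Cebpb, which encodes C/EBPβ, a bZIP factor that can dimerise with ATF4 and with CEBPG. Its ATF4 peak was at chr2:167689575-167689889, with a score of 282.46, the second highest of the narrow single members. It began 660 bp and ended 974 bp downstream of the RefSeq start at 167688915. The gene spans 167688915 to 167690432, so the peak was inside it and outside the promoter window. A CEBPG peak (score 845.58) lay 118 bp further downstream, at 167690007 to 167690416, and the centres were 479.5 bp apart. The ATF4 and CEBPG peaks were thus neighbours within 1 gene.

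Fosl2, which encodes the AP-1 subunit FRA2 and is also a bZIP gene, held a weaker member of the same kind. Its ATF4 peak was at chr5:32140652-32140950 (score 68.42), centred 4329 bp downstream of the RefSeq start. The nearest CEBPG peak (score 86) was 890 bp upstream of it, at 32139424 to 32139762. Under a stricter rule, with no CEBPG centre within 1000 bp, Cebpb was no longer on the list.

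Gene lists for the amino acid response and for fibroblasts were set beside the members. Of 265 genes in 12 lists, 2 had a member within 5 kb of an end, Cebpb and Fosl2, both in the list of 42 bZIP genes. Over all 21887 protein-coding genes, 83 (0.379%) had a member there. The count over the lists (0.755%) rests on these 2 genes and is not a result about the lists. In each of the other 11 lists the count was 0, which at the share over all genes and with 18 to 24 genes a list is not a result about those lists either. Those lists were amino acid synthesis and one-carbon metabolism (22 genes), amino acid transporters (18), aminoacyl-tRNA synthetases (20) and integrated stress response regulators (21). The remaining lists were autophagy (18), endoplasmic reticulum quality control (20), cytosolic ribosomal proteins (24), translation initiation and elongation factors (19), fibroblast extracellular matrix (22), mesenchymal transcription factors (20) and mTORC1 and amino acid sensing (19). In the same windows, ATF4 peaks of score 50 or more on CEBPG peaks were at 7 of the 22 synthesis genes. They were at 4 of the 20 synthetase genes and 9 of the 21 stress response genes. For endoplasmic reticulum quality control the count was 3 of 20, and for translation factors 2 of 19. It was 1 of 18 for autophagy and 1 of 22 for matrix. In the transporter (18 genes), bZIP (42), ribosomal protein, mTORC1 and mesenchymal lists it was 0. Over all protein-coding genes, 104 (0.475%) had such a peak. A lower minimum score of 45 gave 4 list genes with an ATF4 peak without CEBPG.

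The other narrow single members with a score of 100 or more lay 8.03 kb or more from protein-coding gene ends. The highest score of this kind, 282.97, belonged to a peak of 351 bp at chr17:13305937-13306287, 48.5 kb from Tcp10c, a gene of the t-complex. The next after Cebpb was a peak of 716 bp at chr11:18331642-18332357 (191.2), 378 kb from Etaa1, a gene of the replication stress response. A peak of 409 bp at chr16:50030424-50030832 (114.2) lay 118 kb from Cd47, the integrin-associated surface protein. One of 510 bp at chr11:89081616-89082125 (110.37) lay inside Gm525. With Cebpb, these 4 made up the 5 narrow single members with a score of 100 or more. Counting starts of noncoding genes too, the nearest RefSeq start was 8.03 to 161 kb from the 4. The nearest CEBPG peak was 22.8 to 92.1 kb from the 4, in contrast to the 118 bp at Cebpb.

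Others in rank had scores from 81.36 to 99.9. They lay 356 kb from Olfr161 (99.9), 32.5 kb from Epm2a (85.73), 51.5 kb from Slc25a36 (84.39) and 15.9 kb from Mmp3 (83.85), a matrix metalloproteinase gene. The lowest named were inside Dlg2 (82.09), a synaptic scaffold gene, and 9.29 kb from Gm32719 (81.36). The peaks nearest Epm2a and Mmp3 were 68 and 61 bp wide, while the others named here were 281 to 479 bp wide. The Mmp3 peak had a CEBPG peak (score 40.72) 1061 bp away. For the other 5 named here the nearest was 34.6 kb or more away.

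Narrow single members lay near gene ends less often than ATF4 peaks on CEBPG peaks. Of the 467, 21 had their centre at most 1 kb from the start or the end of a protein-coding gene span (4.5%, 95% Wilson interval 2.96 to 6.78%). For narrow single ATF4 peaks on CEBPG peaks the count was 39 of 296 (13.2%, 9.79 to 17.5%). Fisher's exact test, two-sided, gave p = 2.42e-05, and 3.63e-05 after Benjamini-Hochberg adjustment over the 3 comparisons of this kind. Over all ATF4 peaks the share was 4.81%, close to that of the members, and among the 1693 weaker ATF4 peaks without a CEBPG overlap it was 3.31% (2.56 to 4.27%). Scores differed between members and the peaks on CEBPG peaks. At other score limits, clusters were formed anew among the peaks left, so some clustered peaks became single. Within scores from 50 to 80 the shares were 4.39% of 456 peaks and 13.8% (Fisher's exact p = 0.000236, unadjusted). At scores of 80 or more, 19 peaks without CEBPG were narrow and single, with 5.26% against 13% (Fisher's exact p = 0.474, unadjusted).

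Inside gene spans the difference did not pass the test. The share was 36.8% of the members (172 of 467, 32.6 to 41.3%) and 43.2% of the narrow single peaks on CEBPG peaks (128 of 296, 37.7 to 48.9%), with an adjusted Fisher's exact p of 0.0807. Over all ATF4 peaks it was 36.5%. The test passed at scores of 60 or more (28.5% against 44.7%, unadjusted Fisher's exact p = 0.00323). Within scores from 50 to 80 the shares were 37.5% and 39.5% (unadjusted Fisher's exact p = 0.7). The gene table gives spans without exons, so exons, introns and untranslated regions were not told apart.

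**Figure D2:**
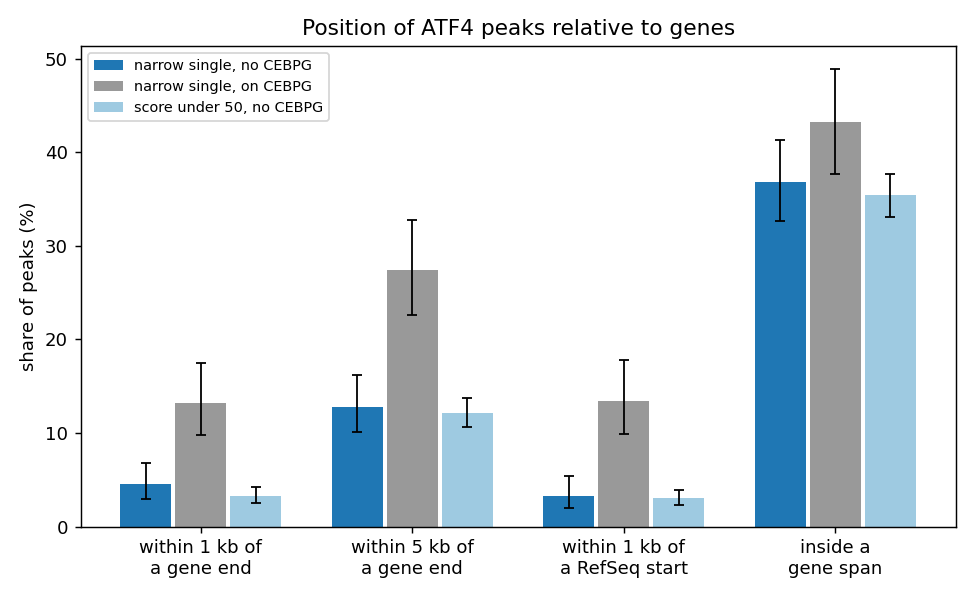
Share of peaks (%, with 95% Wilson intervals as bars) within 1 kb or 5 kb of a protein-coding gene end, within 1 kb of a RefSeq start, or inside a gene span. Narrow single members (dark blue) sit at 4.5% within 1 kb of an end, next to the weaker ATF4 peaks without CEBPG (3.31%) and below the narrow single peaks on CEBPG peaks (13.2%).

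At transcription starts, narrow single members touched 0 of the promoter windows. Counting the 452 members on chromosomes for which starts were used, the 95% Wilson interval reaches 0.843%. ATF4 peaks on CEBPG peaks touched a window at 24 of 284 (8.45%, 5.74 to 12.3%), and all ATF4 peaks did so at 1.57%. Centres within 1 kb of a start numbered 15 of 452 members (3.32%, 2.02 to 5.4%), against 38 of 284 (13.4%, 9.91 to 17.8%). This comparison was added after seeing the data (Fisher's exact test, two-sided, unadjusted p = 5.48e-07). Cebpb was among the 15. The share of centres within 1 kb of a start was 4.41% over all ATF4 peaks. Among the weaker ATF4 peaks without a CEBPG overlap it was 3.01%, so the members' share was near both.

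The 21 narrow single members near a gene end, other than Cebpb, had scores from 50.01 to 74.7. The highest, 74.7, lay inside Obox2, an oocyte homeobox gene, and others lay inside Vmn2r112 (65.37) and Vmn1r112 (56.94), both vomeronasal receptors, and inside or next to the olfactory receptor genes Olfr1189 (56.63) and Olfr913 (55.05). Over all narrow single members the nearest gene end was that of an olfactory or vomeronasal receptor in 12 of 467 (2.57%), near the 2.46% of all ATF4 peaks. Peaks also lay inside Prmt2, an arginine methyltransferase (60.27), and Srprb, a subunit of the signal recognition particle receptor (58.2). A peak of 58.01 lay inside Asmt, the last enzyme of melatonin synthesis. Members overlapped 0 of the 1475 transfer, ribosomal and small nuclear RNA genes in the table.

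CEBPG peaks numbered 25419. Members were chosen by lying off CEBPG peaks, and the weaker peaks compared here by sharing no base with one, so these distances are descriptive. The nearest CEBPG peak was a median of 40.6 kb from narrow single members, and 34.5 kb from the weaker ATF4 peaks without CEBPG overlap. A CEBPG peak lay within 10 kb of 82 of 467 (17.6%, 14.4 to 21.3%) and more than 100 kb away from 98 (21%, 17.5 to 24.9%). For the weaker peaks these shares were 19.6% and 15.4%. Over all ATF4 peaks, which include those on CEBPG peaks, they were 31.4% and 14.6%. Another ATF4 peak that did lie on a CEBPG peak was within 20 kb of 1 of the 467. Of all 544 members, 18 had a CEBPG peak within 1 kb, and 13 of those CEBPG peaks scored under 100, with a median of 56.49 and a range of 40.17 to 845.58. The highest was the one at Cebpb.

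**Figure D3:**
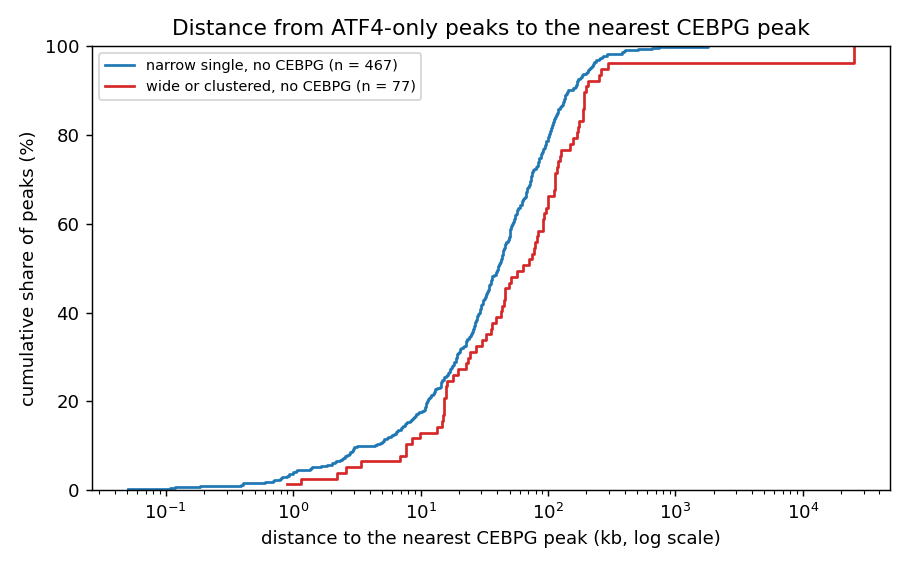
Cumulative share of members (%) by distance to the nearest edge of a CEBPG peak (kb, log axis), for 467 narrow single and 77 wide or clustered members. The median was 40.6 kb for the first and 63.6 kb for the second, and the step at the far right is the 3 members on chromosome Y.

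Besides Cebpb, the members closest to a CEBPG peak lay 11.4 kb or more from the nearest protein-coding gene end. A peak nearest Arglu1 (54.79, 151 kb from it) was 51 bp from a CEBPG peak of 86.83. One nearest Ppef2 (75.51, 11.4 kb from it) was 108 bp from a CEBPG peak of 131.81, and its centre was 159.5 bp from the RefSeq start of U90926, a long noncoding RNA gene. The peak nearest Rap2b (71.57) was 186 bp from a CEBPG peak of 44.88, and that nearest D7Ertd443e (51.88) was 219 bp from one of 40.19. The lowest score in the CEBPG list was 40.

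Very broad ATF4 peaks were found among the members and not among the peaks on CEBPG peaks. All 26 ATF4 peaks of score 50 or more that were wider than 1 kb were members, 4.78% of 544 (3.28 to 6.91%), and 0 of the 298 peaks on CEBPG peaks were as wide, which allows a share of up to 1.27%. The adjusted Fisher's exact p, two-sided, was 3.41e-05. Over all ATF4 peaks the share was 1.32%, and 5 of 25419 CEBPG peaks were as wide. The 26 lay in 18 places, and neighbours within a cluster are not independent. Within scores from 50 to 80 the share was 1.99% against 0% and the test did not pass (Fisher's exact p = 0.127, unadjusted).

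The highest ATF4 score of the list belonged to this kind. It was a lone peak of 2589 bp at chr17:13550677-13553265 with a score of 1152.06, 164 kb from Tcte2, 2.12 kb from the RefSeq start of 2700054A10Rik and on the same part of chromosome 17 as the Tcp10c peak. Next came a cluster of 5 peaks at chr10:3109389-3117181, 3.32 kb or more from 9230019H11Rik. Its peaks scored 444.85, 240.83, 186.44, 119.33 and 51.46, and 3 of them were wider than 1 kb. A pair at chr6:29747832-29749070 lay inside Smo, the Hedgehog signal transducer, with a top score of 331 and widths of 323 and 879 bp. The peak over Gm40237 (251.59) lay 3 kb from Tmem125, the nearest protein-coding gene. A pair at chr11:117067057-117068169 (top score 174.77) lay 47.2 kb from Sec14l1. A lone peak of 1782 bp (164.63) was 10.7 kb from Gm39469, and 3 peaks 35.1 kb or more from Zfp825 reached 162.9.

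Inside Sfi1, a centrin-binding gene on chromosome 11, stood 4 broad peaks, at chr11:3130697-3190708. They were 4168 to 5537 bp wide with scores of 195.06, 148.71, 116.56 and 100.2. Together they covered 18753 bp of a 60 kb stretch. The largest cluster by number had 7 peaks at chr1:85074977-85115203, around A530032D15Rik, with scores from 51.78 to 119 and widths from 470 to 5349 bp. A CEBPG peak lay 1161 bp from it. On the same chromosome, C130026I21Rik had the peak whose promoter window is printed above. A pair at chr1:85586375-85604696 (top score 79.54) lay at Sp110 and Sp140, which encode nuclear body proteins. The homeobox gene Duxf3 and the neighbouring LOC100504180 each held a wide peak (99.41 and 133.67). A pair of narrow peaks inside Crebbp, the coactivator CBP, scored 94.62 and 59.19.

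**Figure D4:**
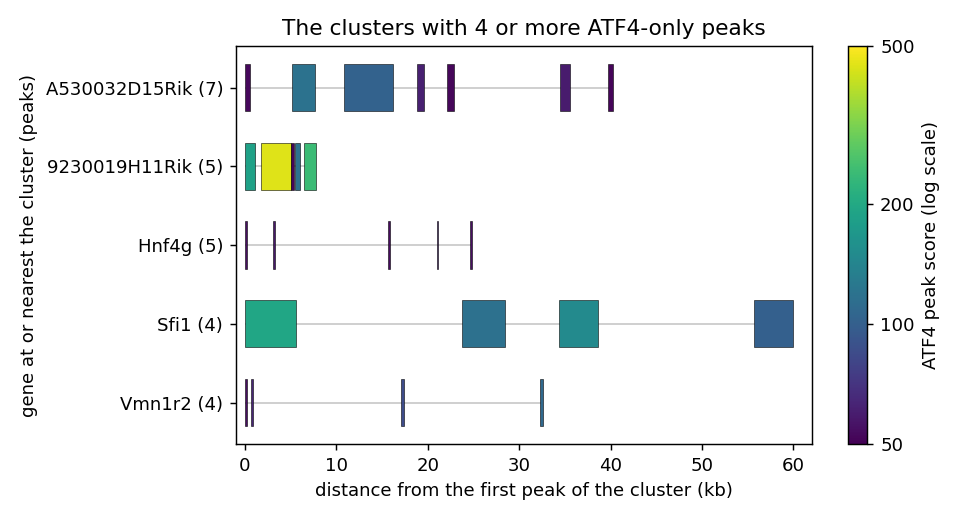
The 5 clusters with 4 or more members, drawn to scale by distance from the first peak of each (kb), with each peak coloured by its ATF4 score on a log scale. The cluster at Sfi1 has 4 peaks of 4168 to 5537 bp over 60 kb, that near 9230019H11Rik packs 5 peaks into 7.79 kb, and those nearest Hnf4g and Vmn1r2 have narrow peaks only.

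Many clustered members lay below 3.2 Mb, near the start of the mapped sequence of a chromosome. In this build the telocentric mouse chromosomes open with an unsequenced stretch that stands for the centromere. Leaving out chromosome Y, 21 of 74 wide or clustered members (28.4%, 19.4 to 39.5%) started below 3.2 Mb, against 2 of 467 narrow single members (0.428%). For ATF4 peaks on CEBPG peaks it was 1 of 298, and for CEBPG peaks 14 of 25406 (0.0551%, chromosomes Y and M left out). With the same chromosomes left out, it was 34 of 2636 (1.29%) over all ATF4 peaks, members among them. For the weaker ATF4 peaks without a CEBPG overlap it was 10 of 1690 (0.592%). The 21 all came from the clusters named below, a few of the 34 wide or clustered places. Neighbours within a cluster are not independent, although the interval treats them so, and narrow single members are single by definition. The 23 members were on 7 chromosomes, and the lowest started at 3000238 on chromosome 3. That was the first of 5 narrow peaks with scores from 53.6 to 61.5, nearest to Hnf4g at 483 kb. Another 4, nearest Vmn1r2 at 89 kb or more, were on chromosome 4 from 3050704 to 3083283 (54.68 to 108.61). The clusters near 9230019H11Rik and inside Sfi1 also belonged here, as did 3 peaks on chromosome 17 from 3006935 to 3012569 (51.24 to 69.33). The 3.2 Mb limit was chosen after seeing the positions. The part of repeated sequence in these peaks was not tested, since no genome sequence was used here beyond the promoter windows.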

How the data were processed

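ChIP-seq peak lists of an ATF4 and a CEBPG library (1 each) from amino acid deprived mouse embryonic fibroblasts were used. Per the submitters' processing notes, the tools were Trimmomatic, BWA, MACS 1.4.2 and HOMER with build mm10. Settings, and whether the GFP library served as background, are not given in the sources used here. The score deposited by the authors is the number that ends each peak name. It looks like the scale of MACS, although no header states this. The files hold no read counts, so depth is unknown. Positions are 1-based.

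Overlap, clusters and gene positions were computed in Python 3.11.15 with pandas 2.3.3, Fisher's exact test with SciPy 1.17.1 and Wilson intervals with statsmodels 0.14.6, and checked on planted overlaps. A wide member was over 1 kb, and a clustered one within 20 kb of another member. Gene spans of 21887 protein-coding genes came from RefSeq (GRCm38.p6), and starts and promoter sequences from its promoter table, where no start on chromosome 18 was used here, so its 15 members were left out of those counts. All 265 list genes matched, 3 through a synonym. Named regions were fixed by rank: the 12 highest narrow single members, the 10 highest wide or clustered ones and the 5 largest clusters, the 10 highest near gene ends, the 5 nearest CEBPG peaks, 3 on each side of the score limit, and members at list genes. Some regions of those ranks are not reported here. Further clusters at Sp110, Duxf3 and Crebbp, and the peaks at C130026I21Rik and Gm21083, were named after their values were seen. Members and lists were chosen with earlier results of these data known. Alternatives changed the member rule, the limits of width and cluster, the gene distance and the score range.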

Additional observations from a re-analysis of the deposited data

How the results depend on the processing

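Of 53 alternatives to the 6 results (numbers of members, the shares near ends, inside spans and wide, and the list genes), 39 kept the direction and the side of the threshold, or a count within 1.5 times. The number of members depends on the score limit: 162 at 60, 41 at 80 and 1102 at 45 or more, with 130, 19 and 980 of them narrow and single. The list genes with a member numbered 1 where CEBPG centres within 1000 bp were barred, 1 at scores of 80 and 4 at 45. Unadjusted Fisher's exact tests changed their call in 5 cases. The share near ends did not pass at scores of 80 or more (5.26%), nor the share of wide peaks from 50 to 80 (1.99%). The share inside spans passed at scores of 60 or more (28.5%), with wide set at over 500 bp (36.5%) and with wide and clustered peaks kept in (35.8%). At 80 or more, 19 peaks were narrow and single, with clusters formed anew at each score limit. The cause of the other changes was not tested. Read depth is unknown, and no library could be left out. No paired analysis was possible because each antibody had 1 library.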

Other observations

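Very narrow peaks were frequent among the members. Of 467 narrow single members, 85 were under 100 bp wide (18.2%, 95% Wilson interval 15 to 22%), against 4 of 296 narrow single ATF4 peaks on CEBPG peaks (1.35%, 0.527 to 3.42%) and 126 of 1693 weaker ATF4 peaks without CEBPG overlap (7.44%). Among all CEBPG peaks the share was 9.52%. The 85 had scores from 50.01 to 85.73 with a median of 55.78, and the narrowest was 61 bp.

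Many members carried exactly the same score. A score held by another narrow single member was found for 222 of 467 (47.5%). The score 55.78 occurred 21 times, in peaks of 81 to 104 bp, and 50.8 occurred 16 times, in peaks of 154 to 184 bp. Among narrow single ATF4 peaks on CEBPG peaks, 28 of 296 (9.46%) had a score in common with another. The share was higher in the weaker ATF4 peaks without CEBPG overlap (1442 of 1693, 85.2%) and in all ATF4 peaks (71%). Scores are rounded and the 1693 lie between 40.02 and 49.99, so ties among them are bound to be frequent. The sets differ in size and in range of scores, so these shares cannot be compared directly.

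By chromosome, narrow single members were most numerous on chromosome 2 (47, or 10.1%), which held 7.83% of CEBPG peaks. Chromosome X held 8 and chromosome Y 0, while 3 clustered members were on chromosome Y. These widths, ties and chromosomes were looked at after seeing the data, and none was tested.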
